A study of Mus musculus with 16 samples.

Results

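Lysosomes are acidic compartments in which hydrolases break down proteins, glycans and lipids, and their membranes carry glycoproteins, channels and exporters of the products. In T cells they take part in autophagy, nutrient sensing and the storage of secreted contents. The genes described here are 33 lysosomal genes, chosen by symbol from the 23337 gene rows of the count tables. All 33 had a row, and all 33 passed the filter on low counts that left 12952 genes for testing. By role they are 8 proteases (the cathepsins Ctsa, Ctsb, Ctsc, Ctsd, Ctsl, Ctss and Ctsz, and the tripeptidyl peptidase Tpp1), 13 sugar and sulfate hydrolases (Arsa, Arsb, Gaa, Gla, Glb1, Gusb, Hexa, Ids, Idua, Man2b1, Manba, Neu1 and Sgsh), 4 genes of lipid breakdown and cholesterol export (Asah1, Lipa, Npc1 and Npc2), 6 membrane proteins (Cd63, Cd68, Cln3, Lamp1, Lamp2 and Mcoln1) and 2 regulators (Grn and Tfeb).

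Messenger RNA was sequenced from CD4+ T cells of C57BL/6 mice with the genotype Dgcr8f/f Tbet-/- CD4-cre. Cre under the Cd4 promoter removes Dgcr8, which most microRNAs need for their processing, and T-bet drives Th1 cells; every group, the control included, lacks both, and cells were sorted as live and RosaYFP+. Cells from spleen and lymph nodes were stimulated for 3 days through CD3 and CD28 with 10 units/ml of IL-4 and rested for 2 days in 20 units/ml of IL-2. On day 1 and day 4 they received 500 nM of a synthetic microRNA mimic, which was a control, miR-23a, miR-24 or miR-27a, with 4 libraries per group (replicates 1 to 4) and 16 in all. The labels do not say which libraries came from separate mice, so p-values measure the spread between libraries, which may be technical. The question was whether the 33 genes fall as a set with miR-24.

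A microRNA guides its silencing complex to mRNAs that pair with its seed, bases 2 to 8 from its 5′ end. The mature sequences below are shown because the seed defines the sites searched. They are from RefSeq (GRCm38.p6), the 3p arms were assumed because the labels name no arm, and capitals mark the seed. The sequence of the control mimic is not given in the sources used here.
miR-23a-3p: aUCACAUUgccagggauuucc
miR-24-3p: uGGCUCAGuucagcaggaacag
miR-27a-3p: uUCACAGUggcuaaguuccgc
The 3 seeds differ from each other. In GRCm38.p6 miR-23a, miR-27a and 1 copy of miR-24 lie side by side on the plus strand, at chr8:84208563-84208583, chr8:84208727-84208747 and chr8:84208875-84208896. The second copy of miR-24 lies at chr13:63301251-63301272.

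Sites for the miR-24 seed (CTGAGCCA, or its first or last 7 bases) were found in the longest annotated 3-prime UTR (GENCODE M21, GRCm38) of 10 of the 33 lysosomal genes, or 30.3%, against 22.9% of 18212 genes searched. The 10 genes were Ctsb, Ctsl, Ctsz, Gla, Glb1, Lipa, Neu1, Npc2, Sgsh and Tfeb. The full 8-base site was present in 4 genes (Ctsb, Ctsl, Gla and Neu1), or 12.1%, against 7.37% of all genes. For miR-23a 7 of 33 genes (21.2%, against 23.5%) had a site, and for miR-27a 12 of 33 (36.4%, against 26.8%). The median UTR length was 1090 bases for the 33 genes and 1011 for all. The sites of Glb1, the beta-galactosidase, and Npc2, the soluble carrier of cholesterol, are shown because these 2 genes with sites had the lowest fold changes against the mean of the other groups, together with those of Psap, which is described further on. Against control the lowest of the 10 genes was Ctsl at -1.07, whose full site is not shown. Capitals mark the bases that match, the genome strand is given in parentheses, and a match is a description and not a shown target. Npc2 also holds 3 sites for miR-23a and 2 for miR-27a, and its values are compared with those groups too.
Glb1, chr9:114474110-114474116 (+): ctctgagaCTGAGCCttggggag
Npc2, chr12:84755629-84755635 (-): ttgactttCTGAGCCtcctgctt
Npc2, chr12:84755416-84755422 (-): ctttcaccCTGAGCCcaccctat
Npc2, chr12:84755147-84755153 (-): tgtcggtgTGAGCCAttgtgcta
Psap, chr10:60301971-60301977 (+): gggggtggTGAGCCAgagggcag
Psap, chr10:60301995-60302001 (+): agcattttCTGAGCCctttcttg

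Many lysosomal promoters carry an E-box bound by TFEB, a factor that switches on lysosomal genes. Within promoter windows from 250 bases before to 50 after the start (RefSeq, GRCm38.p6; 30 of 33 genes matched), TCACGTGA was present in 5 of 30 genes, or 16.7%, against 1.12% of all 27025 genes with a window. The shorter CACGTG, which lies inside it, was present in 11 of 30 (36.7%, against 8.09%), and the full CLEAR element, which adds a base on each side, in 1 of 30 (3.33%, against 0.37%). Each motif is a palindrome, so both strands are covered. A window of 28 bases around TCACGTGA is shown for each of the 5 genes, with the motif in capitals, because the motif is a feature that these genes share; for Ctsa and Gla, which hold it 2 times, 1 window is given.
Ctsa, chr2:164833750-164833777 (+): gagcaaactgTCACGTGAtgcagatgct
Ctsd, chr7:142387909-142387936 (-): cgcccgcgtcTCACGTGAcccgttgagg
Gla, chrX:134601216-134601243 (-): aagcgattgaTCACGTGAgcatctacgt
Cln3, chr7:126583341-126583368 (-): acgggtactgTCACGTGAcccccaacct
Mcoln1, chr8:3500463-3500490 (+): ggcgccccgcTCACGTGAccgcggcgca

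Gene reads numbered 2120408 to 13714841 in 15 libraries and 51474 in control replicate 1. In that library 1 read was worth 16.3 CPM (normalised read counts, on library sizes scaled by TMM) and 3 reads 48.8 CPM, the limit that a count of 0 allows for counting error. It held 95 reads of the 33 genes, with 14 of them at 0, while in the other 15 libraries no gene of the 33 was at 0. The 33 genes took 0.143% to 0.268% of gene reads in those 15 libraries. Markers of the labelled CD4 T cells (Cd3e, Cd3d, Cd3g, Cd4, Cd28 and Cd5) were all detected and summed to 4086 ± 692.5 CPM in control and 2943 ± 314 with miR-24, beside 3672 ± 384 with miR-23a and 3052 ± 284 with miR-27a (SD, n = 4). Cd28 made up the largest part of the sum, with means of 2123 CPM in control, 1516 with miR-24 and 1035 with miR-27a, while Cd3d averaged 89.2 CPM in control and 126.9 with miR-24. For miR-24 against control 0 of the 6 markers were called by edgeR and 5 had an unadjusted p under 0.05 (4 lower and 1 higher), beside 20.3% of all genes; their part in the results was not tested. In such bulk RNA fewer cells of a type and less RNA per cell cannot be told apart. Of 12 macrophage and monocyte markers 4 (C1qa, C1qb, C1qc and Marco) were at 0 in all 16 libraries, and the list summed to at most 20.3 CPM in any library.

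Levels differed widely between the 33 genes (CPM per kb of the main transcript in GENCODE M21, mean ± SD over 15 libraries of all groups, without control replicate 1). Lamp1, the most abundant glycoprotein of the lysosomal membrane, stood highest at 143 ± 31.9, followed by Npc2 at 130 ± 53.8, the aspartic protease Ctsd at 76.7 ± 25.8, the cysteine protease Ctsb at 50.4 ± 17.98 and Grn, the precursor of the granulins, at 47.6 ± 18.1. Each of these 5 overlapped its neighbours in the order over the libraries. A total of 15 genes had means above 10 CPM per kb and 7 had means below 3. The lowest were the arylsulfatase Arsa at 0.742 ± 0.321, the tetraspanin Cd63 at 1.59 ± 1.64 and Hexa, the alpha subunit of beta-hexosaminidase, at 1.77 ± 0.942. The means of the highest and lowest genes differed by 193-fold, and within a gene the highest library exceeded the lowest by 2.01-fold (Gla) to 76.5-fold (Cd63).

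**Figure D1:**
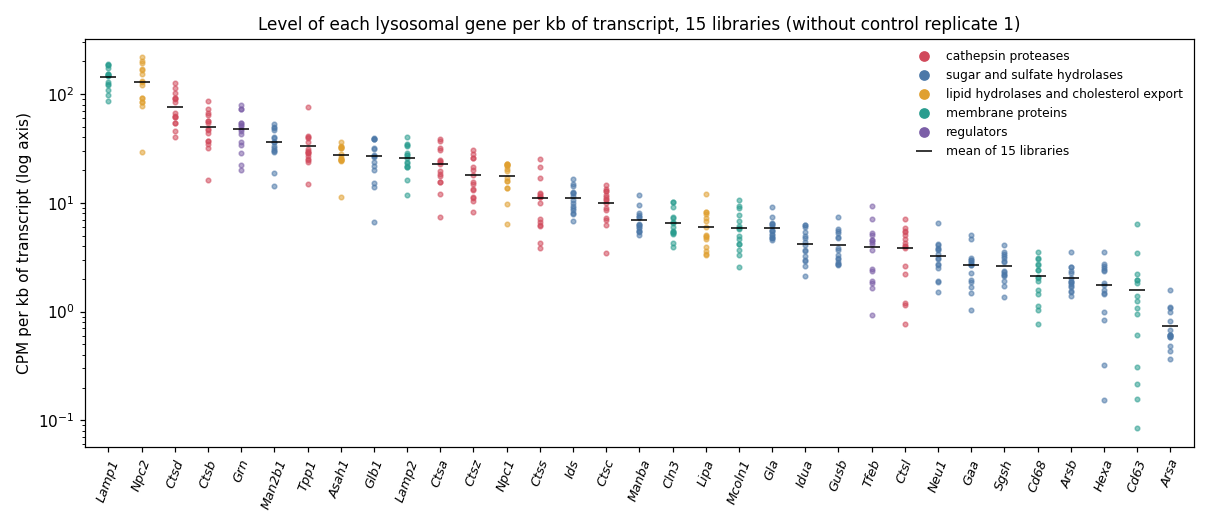
Level of each of the 33 lysosomal genes in CPM per kb of transcript on a log axis, ordered by mean. Points are the 15 libraries other than control replicate 1, coloured by role, and black bars are means; Lamp1 and Npc2 lead, and Cd63 shows the widest spread.

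With miR-24 the 33 genes did not move one way. Against control 17 of 33 had a log2 fold change below 0 and 16 above it, with a median of -0.01, beside 46.9% lower and a median of 0.04 for all 12952 genes. One of the 33 fell past an adjusted p of 0.05 (Cd63; edgeR quasi-likelihood test with the replicate number as a block, Benjamini-Hochberg over all tested genes, the call used throughout), and 0 rose. Among all tested genes 2.25% fell and 2.32% rose, and 4.56% were called in either direction. At an unadjusted p under 0.05 there were 8 of the 33, 5 lower and 3 higher, beside 20.3% of all genes (9.04% lower and 11.2% higher). Without the block 0 of 33 were called, beside 0.849% of all genes, and the median was -0.11.

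The summed level of the 33 genes overlapped between the groups. It was 1547, 2614, 2496 and 1955 CPM in control replicates 1 to 4, and 2025, 1924, 2528 and 2579 CPM with miR-23a. With miR-24 it was 1399, 1918, 2261 and 2378 CPM, and with miR-27a 1800, 2666, 2780 and 2202 CPM. The miR-24 libraries included the lowest of the 16, and their range overlapped that of every other group. Paired by replicate number, the sum with miR-24 was below that with miR-23a in each replicate, by little in replicate 2. It was below control and miR-27a in replicates 1 to 3 and above both in replicate 4. The sums were not tested. Within replicate numbers, the median log2 difference between miR-24 and control over the 33 genes was 0.76, -0.14, -0.27 and 0.51 for replicates 1 to 4 (0.84, 0.03, 0.00 and 0.05 over all genes). The sign was negative in replicates 2 and 3 and positive in replicate 4, while replicate 1 rests on the shallow control library. Without control replicate 1 the fitted median was 0.00 and 0 of 33 were called.

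**Figure D2:**
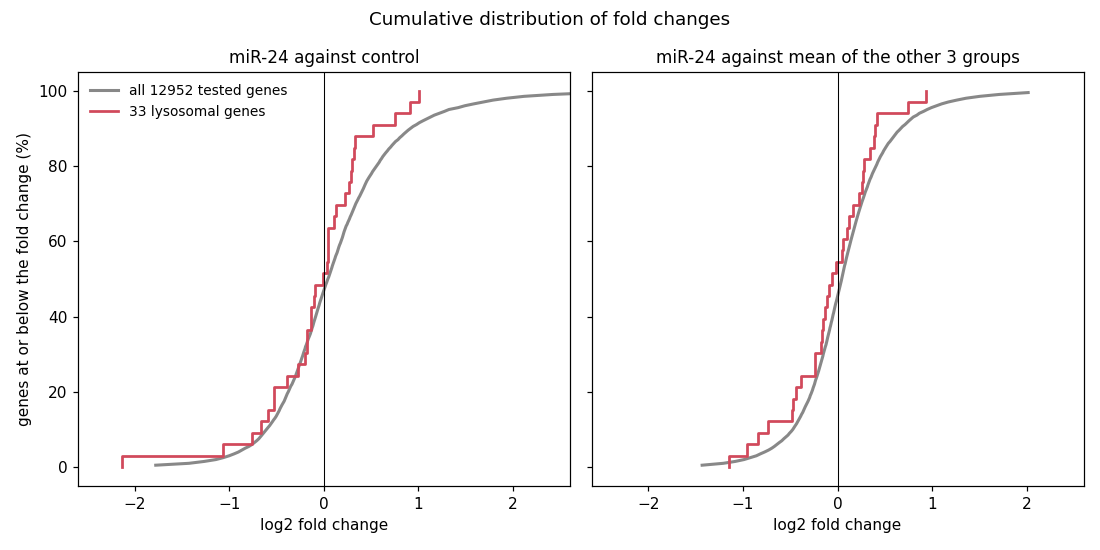
Cumulative share of genes, in percent, at or below each log2 fold change, for miR-24 against control on the left and against the mean of the other 3 groups on the right. The stepped line is the 33 lysosomal genes and the smooth line all 12952 tested genes, drawn without its extreme tails; the lines run close together near 0, and the medians are -0.01 and 0.04 on the left and -0.06 and 0.04 on the right.

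Against the mean of control, miR-23a and miR-27a, 18 of 33 genes were lower with miR-24, with a median of -0.06 beside 0.04 for all genes. Glb1 fell and Ctss, a protease of antigen-processing compartments, rose; 3.06% of all genes fell and 3.12% rose. Against miR-23a 20 of 33 were lower with a median of -0.12 (0.01 for all genes), and again Glb1 fell and Ctss rose, where 2.73% of all genes fell and 2.65% rose. Against miR-27a 15 of 33 were lower with a median of 0.04 (0.03 for all genes), and Glb1 fell, where 2.62% of all genes fell. Without the block 0 of 33 were called against miR-27a and 0 against the mean, beside 0.88% and 1.83% of all genes. These comparisons share the miR-24 libraries. In the test for any difference among the 4 groups 5 of 33 genes were called (Ctss, Grn, Glb1, Gaa and Cd63), beside 9.68% of all genes; without the block it was 1 (Ctss), beside 1.94%.

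With miR-23a against control 17 of 33 genes were lower and the median was -0.03 (0.04 for all genes). None of the 33 was called by edgeR, DESeq2 or limma with the block, beside 0.425%, 2.81% and 0.247% of all genes in that order. By edgeR 7 had an unadjusted p under 0.05, beside 17% of all genes. Without control replicate 2, Npc1 alone was called. With miR-27a against control 18 of 33 were lower and the median was 0.00 (0.02 for all genes). Grn rose and Gaa, the acid alpha-glucosidase that degrades glycogen, fell, where 1.75% of all genes rose and 1.32% fell. Without the block 0 of 33 were called, beside 0.17% of all genes. In the CPM, Gaa and Ctsc were lower in all miR-27a than in all control libraries, as were 2.21% of all tested genes.

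**Figure D3:**
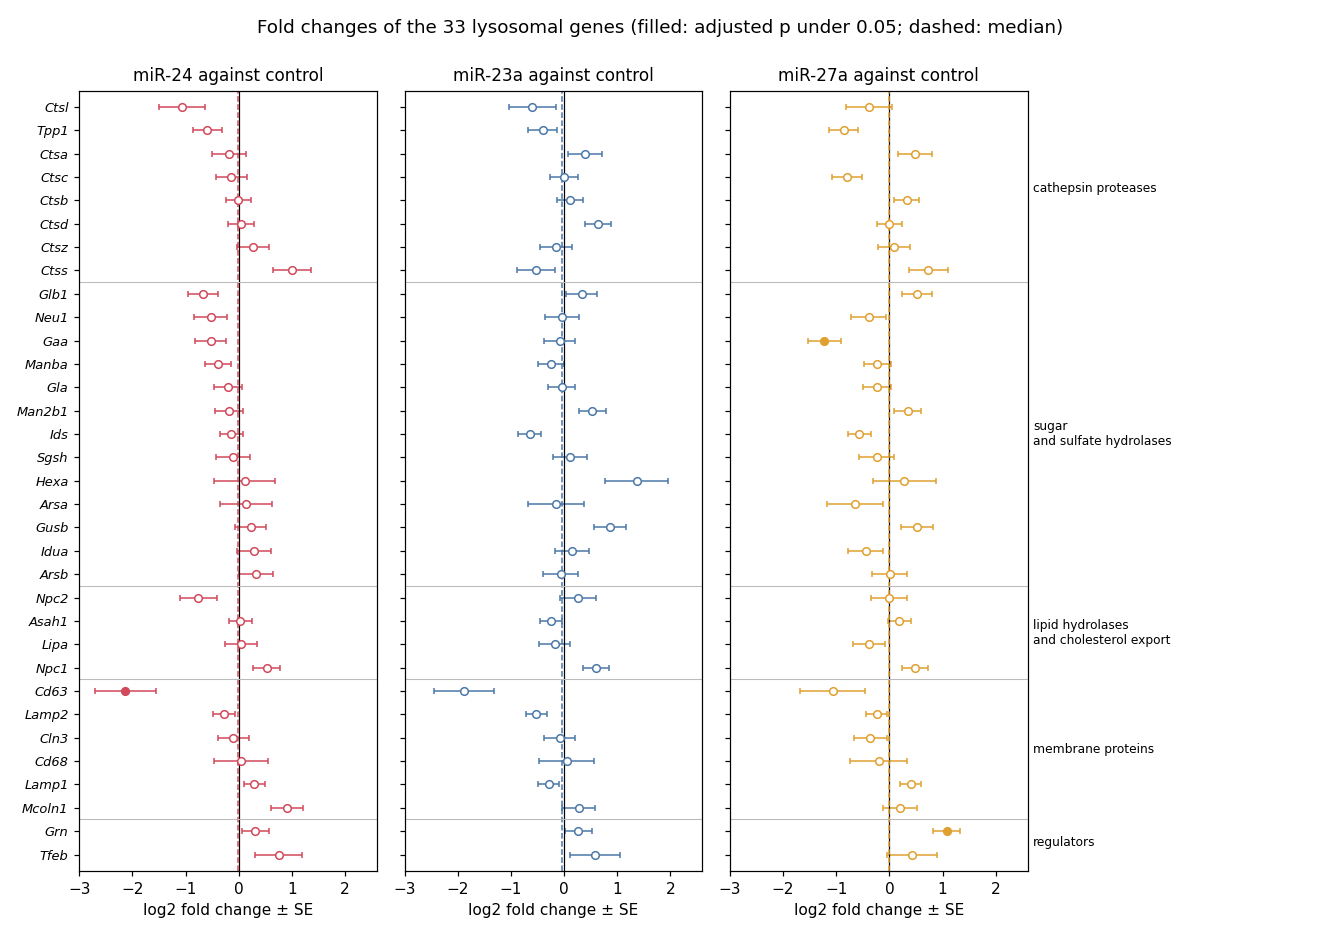
Log2 fold change with its standard error for each of the 33 lysosomal genes, for the 3 mimics against control, grouped by role and ordered within a role by the miR-24 value. Filled points have an adjusted p under 0.05 (Cd63 with miR-24, Gaa and Grn with miR-27a), and the dashed line is the median, which lies near 0 for each mimic.

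Among the 8 proteases 5 were lower and 3 higher with miR-24 against control, with a median log2 fold change of -0.07 and 0 called. Ctss (GRCm38, chr3:95526786-95556403, plus strand) read 16.3, 15.5, 8.47 and 8.99 CPM in control replicates 1 to 4 and 8.33, 5.24, 5.81 and 9.71 CPM with miR-23a. It read 16.5, 22.8, 34.2 and 16.3 CPM with miR-24 and 15.8, 15.5, 28.8 and 13.4 CPM with miR-27a. All 4 miR-24 libraries lay above all 4 miR-23a libraries, as did 3.76% of all genes, with Ctss and Lamp1 the genes of the 33 that did. They also lay above all control libraries, as did 4.04% of all genes and no other of the 33, but the lowest of them, at 16.29 CPM, was next to the 16.28 CPM that a single read gave in control replicate 1. Ctss was higher with miR-24 than with miR-23a by 1.53 ± 0.33 on the log2 scale (SE; edgeR adjusted p = 0.0104, and 0.0235 without the block). Against the mean of the other groups it was higher by 0.94 ± 0.25 (adjusted p = 0.0334, and 0.0651 without the block). Against control the value was 1.01 ± 0.36 (adjusted p = 0.116). The call against miR-23a was lost without miR-23a replicate 3 or miR-24 replicate 3 (adjusted p up to 0.0709). The call against the mean was lost without control replicate 3, miR-23a replicate 3, miR-24 replicate 2 or 3, or miR-27a replicate 1 or 2 (adjusted p up to 0.3).

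Genes of antigen-presenting cells were read beside Ctss, which those cells express strongly. Class II presentation genes (Cd74, H2-Aa, H2-Ab1, H2-Eb1, H2-DMa, H2-DMb1 and Ciita) summed to 64.5 ± 30.8 CPM in control and 67.8 ± 31.4 with miR-24, beside 99.1 ± 53.2 with miR-23a and 121.5 ± 73.6 with miR-27a (SD, n = 4). The 8 dendritic cell markers summed to 16.3 to 50.6 CPM over the control libraries and 40.3 to 91.0 with miR-24, beside 24.9 to 51.9 with miR-23a and 26.8 to 43.3 with miR-27a. Most of that sum was Batf3, at 23.5 CPM in control and 51.0 CPM with miR-24 (edgeR adjusted p = 0.0421, and 0.238 without the block), and Cd209a was at 0 in all 16 libraries. In control and with miR-24, Xcr1 averaged 8.04 and 10.05 CPM, Itgax 1.59 and 1.58, and Siglech 1.05 and 1.15. Zbtb46 averaged 0.494 and 1.09 CPM, Flt3 0 and 0.174, and Clec9a 0 and 0.105. With miR-23a and miR-27a, Xcr1 averaged 10.41 and 6.28 CPM, Itgax 1.875 and 1.42, and Siglech 1.125 and 0.333. In those 2 groups Zbtb46 averaged 1.375 and 1.17 CPM, Flt3 0.0191 and 0.057, Clec9a 0.0191 and 0, and Batf3 23.02 and 25.6. The 12 macrophage and monocyte markers summed to 0 to 15.1 CPM in control and 7.81 to 19.7 with miR-24, beside 5.12 to 20.3 with miR-23a and 8.39 to 17.2 with miR-27a. B cell markers summed to 9.58 ± 6.82 CPM in control and 14.4 ± 3.78 with miR-24. Their sum was 14.7 ± 6 CPM with miR-23a and 16.25 ± 6.97 with miR-27a, and the control libraries ranged from 0 to 16.1. The part of other cell types in the Ctss result was not tested.

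Ctsd read 97.7, 132, 196 and 115 CPM in control replicates 1 to 4 and 267, 131, 244 and 217 CPM with miR-23a. It read 115, 133, 181 and 142 CPM with miR-24 and 85.8, 97.2, 198 and 192 CPM with miR-27a. The 4 groups overlapped, with 3 of the 4 miR-23a libraries above every other library. The log2 fold change against control was 0.04 ± 0.24 with miR-24, 0.63 ± 0.25 with miR-23a and 0.00 ± 0.23 with miR-27a (adjusted p = 0.951, 0.211 and 1, edgeR). Of the other proteases Ctsl had the lowest value with miR-24, at -1.07 ± 0.43 (adjusted p = 0.166, edgeR), and Tpp1 was at -0.59 ± 0.27 with miR-24 and -0.86 ± 0.27 with miR-27a (adjusted p = 0.228 and 0.079). The remaining 4 (Ctsa, Ctsb, Ctsc and Ctsz) lay between -0.18 and 0.27 with miR-24. Ctsc, the dipeptidyl peptidase that activates granule proteases, read 65.1 (4 times 1 read), 26.4, 29.3 and 31.9 CPM in control and 8.71, 24.9, 15.7 and 18.2 CPM with miR-27a. Its miR-27a libraries lay below all control libraries, with a log2 fold change of -0.80 ± 0.29 (adjusted p = 0.127, edgeR).

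Among the 13 sugar and sulfate hydrolases 8 were lower and 5 higher with miR-24 against control, with a median log2 fold change of -0.14 and 0 called. Their summed level was 314 ± 38.1 CPM with miR-24, beside 360 ± 73.4 in control, 409 ± 18.3 with miR-23a and 378 ± 51.3 with miR-27a (SD, n = 4). Glb1 (GRCm38, chr9:114401076-114474898, plus strand) read 0, 64.5, 75.3 and 62.6 CPM in control replicates 1 to 4 and 48.5, 51.9, 93.5 and 93.2 CPM with miR-23a. It read 15.9, 33.6, 36.4 and 65.8 CPM with miR-24 and 57.4, 93.0, 93.8 and 76.8 CPM with miR-27a. Replicates 1 to 3 of miR-24 lay below all libraries of the other groups but control replicate 1, which had no read, and replicate 4 lay within the range of each other group.

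Glb1 was lower with miR-24 than with miR-27a by a log2 fold change of -1.20 ± 0.27 (edgeR adjusted p = 0.0154), than with miR-23a by -0.998 ± 0.265 (adjusted p = 0.0333) and than the mean of the other groups by -0.95 ± 0.23 (adjusted p = 0.0166). Against control alone the value was -0.67 ± 0.28 (adjusted p = 0.186). Without the block the adjusted p for the 3 called comparisons of Glb1 was 0.217, 0.328 and 0.203. The Glb1 call against the mean was lost without miR-24 replicate 2 or 3 (adjusted p up to 0.137). That against miR-27a was lost without those libraries or miR-27a replicate 1, 2 or 3 (up to 0.0909), and that against miR-23a without miR-23a replicate 1, 3 or 4, miR-24 replicate 1, 2 or 3 or miR-27a replicate 2 (up to 0.151).

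Gaa (GRCm38, chr11:119267887-119285454, plus strand) read 16.3 (1 read), 10.8, 17.0 and 10.4 CPM in control replicates 1 to 4 and 11.3, 9.79, 18.4 and 10.1 CPM with miR-23a. It read 9.69, 7.07, 8.24 and 10.7 CPM with miR-24 and 6.13, 3.76, 5.40 and 6.77 CPM with miR-27a. All 4 miR-27a libraries lay below all libraries of the other 3 groups. Against control alone 2.21% of all genes were so placed, and the share against all 3 groups was not counted. Gaa and Idua were the genes of the 33 that were higher in all miR-24 than in all miR-27a libraries, as were 3.92% of all genes. Gaa fell with miR-27a against control by 1.22 ± 0.31 on the log2 scale (edgeR adjusted p = 0.0371, and 0.115 without the block). The Gaa call was lost without control replicate 1 (adjusted p = 0.0506), control replicate 3 or 4, miR-24 replicate 2 or 3, or miR-27a replicate 1, 2 or 3 (adjusted p up to 0.192). With miR-24 the Gaa value against control was -0.52 ± 0.29 (adjusted p = 0.329).

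The other 11 hydrolases lay between -0.53 (Neu1, a sialidase) and 0.33 (Arsb, an arylsulfatase) on the log2 scale with miR-24 against control. For miR-23a Hexa read 6.99, 5.01, 5.28 and 5.50 CPM, above all control libraries (0, 3.14, 4.77 and 0.305 CPM) and above all miR-24 libraries (1.67, 1.97, 3.48 and 2.98 CPM). It was the sole gene of the 33 above all control libraries, as were 3.18% of all genes. The value of Hexa with miR-23a against control was 1.37 ± 0.60 (edgeR adjusted p = 0.255). Man2b1, the alpha-mannosidase, read 54.3, 117, 115 and 127 CPM with miR-24, below all of its miR-23a libraries at 179, 190, 155 and 150 CPM. The value of Man2b1 for miR-24 against miR-23a was -0.72 ± 0.24 (adjusted p = 0.1). Across all tested genes 4.78% were lower with miR-24 than with miR-23a in all libraries without overlap, and 2 of the 33 were (Hexa and Man2b1).

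**Figure D4:**
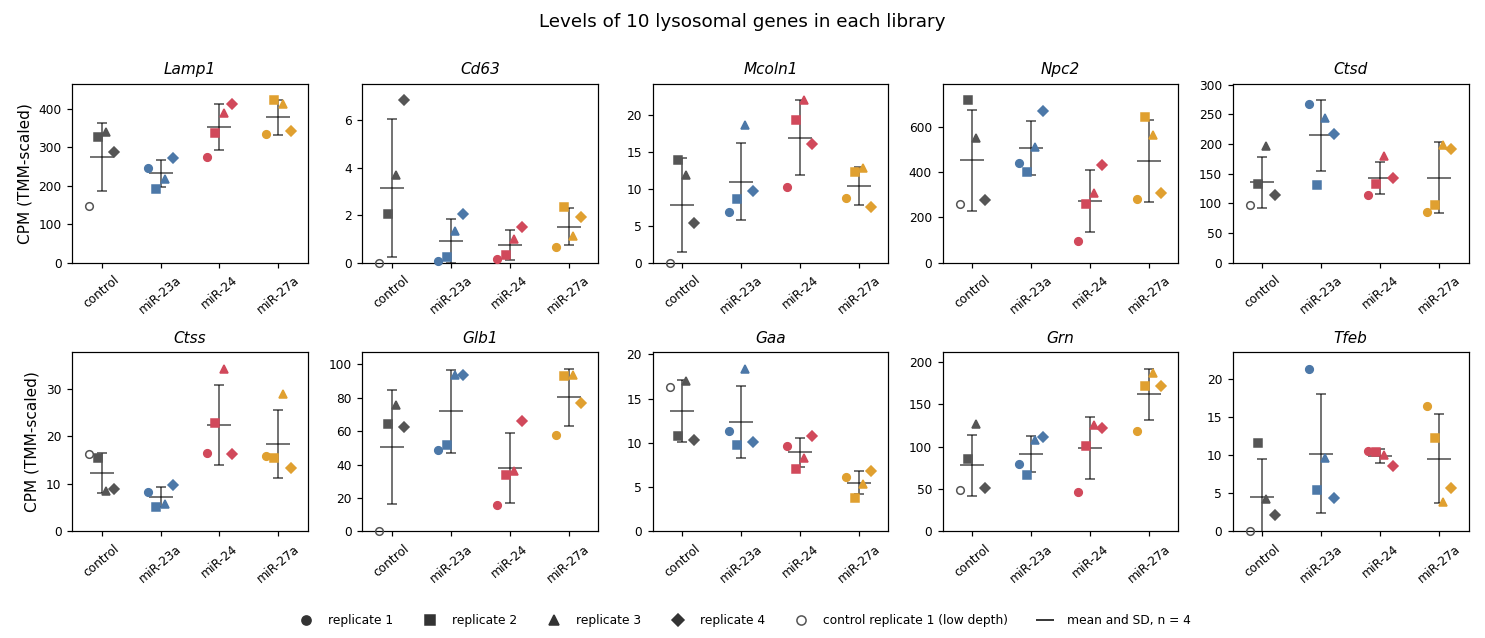
CPM of 10 lysosomal genes in each library, by mimic group, with replicate numbers as symbols, control replicate 1 as an open circle, and the mean and SD of 4 libraries in black. Ctss with miR-24 lies above miR-23a, Gaa with miR-27a lies below the other groups, and the groups overlap for Npc2, Ctsd and Tfeb.

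Of the 4 genes of lipid breakdown and cholesterol export 1 was lower and 3 higher with miR-24 against control, with a median of 0.04 and 0 called. Npc2 read 260 (16 times 1 read), 718, 551 and 277 CPM in control replicates 1 to 4 and 438, 401, 510 and 668 CPM with miR-23a. It read 97.2, 257, 307 and 430.0 CPM with miR-24 and 281, 642, 562 and 305 CPM with miR-27a. The lowest 2 of the 16 libraries were miR-24 libraries, and the groups overlapped. The log2 fold change of Npc2 with miR-24 was -0.76 ± 0.34 against control, -1.02 ± 0.33 against miR-23a and -0.85 ± 0.28 against the mean of the others (edgeR adjusted p = 0.221, 0.0882 and 0.0903). Without miR-24 replicate 4 the last of these values was -1.24 (adjusted p = 0.00863). Npc1, the membrane partner to which Npc2 hands cholesterol, was at 0.52 ± 0.25 with miR-24, 0.60 ± 0.25 with miR-23a and 0.48 ± 0.25 with miR-27a against control (adjusted p = 0.242, 0.234 and 0.263). The ceramidase Asah1 and the acid lipase Lipa were at 0.03 ± 0.21 and 0.04 ± 0.30 with miR-24.

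Among the 6 membrane proteins 3 were lower and 3 higher with miR-24 against control, with a median of -0.03. Cd63 (GRCm38, chr10:128900989-128912822, plus strand) read 0, 2.06, 3.69 and 6.86 CPM in control replicates 1 to 4 and 0.0896, 0.228, 1.32 and 2.06 CPM with miR-23a. It read 0.167, 0.329, 1.02 and 1.49 CPM with miR-24 and 0.645, 2.35, 1.14 and 1.94 CPM with miR-27a. Control replicates 2 to 4 lay above all miR-24 libraries, and the count of 0 in control replicate 1 allows up to 48.8 CPM. Cd63 fell with miR-24 against control by 2.14 ± 0.58 on the log2 scale (edgeR adjusted p = 0.0419), on 217 reads in the 16 libraries together. Its value with miR-23a was -1.89 ± 0.57 (adjusted p = 0.131) and with miR-27a -1.07 ± 0.61 (adjusted p = 0.311). The direct comparison of Cd63 between miR-24 and miR-23a gave -0.25 ± 0.58 (adjusted p = 0.89). Without the block the adjusted p for Cd63 was 0.181, and without control replicate 1 it was 0.0606. The call was also lost without control replicate 2, 3 or 4, miR-23a replicate 3 or 4, miR-24 replicate 2, 3 or 4, or miR-27a replicate 1 (adjusted p up to 0.166).

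Lamp1 read 146 (9 times 1 read), 327, 339 and 288 CPM in control replicates 1 to 4 and 246, 191, 218 and 271 CPM with miR-23a. It read 275, 335, 388 and 411 CPM with miR-24 and 334, 422, 411 and 342 CPM with miR-27a. All miR-24 and all miR-27a libraries lay above all miR-23a libraries. For miR-24 so did 3.76% of all genes, and for miR-27a the share was not counted. The log2 fold change of Lamp1 with miR-24 was 0.58 ± 0.19 against miR-23a and 0.29 ± 0.20 against control (edgeR adjusted p = 0.0863 and 0.431). Against miR-23a Lamp1 was called by DESeq2 (adjusted p = 0.0164) and by limma (0.0356). Lamp2, its paralog that also serves chaperone-mediated autophagy, was at -0.27 ± 0.21 with miR-24 and -0.52 ± 0.20 with miR-23a (adjusted p = 0.503 and 0.215).

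Mcoln1, the calcium channel of the lysosomal membrane, read 0, 13.9, 11.8 and 5.33 CPM in control replicates 1 to 4 and 6.90, 8.65, 18.6 and 9.71 CPM with miR-23a. It read 10.2, 19.2, 22.0 and 15.99 CPM with miR-24 and 8.71, 12.2, 12.8 and 7.58 CPM with miR-27a. Its 2 highest libraries were miR-24 libraries, and the groups overlapped. The log2 fold change of Mcoln1 with miR-24 was 0.91 ± 0.31 against control and 0.75 ± 0.22 against the mean of the others (edgeR adjusted p = 0.0972 and 0.0512). With DESeq2 the adjusted p for Mcoln1 was 0.029 and 0.013. Cln3 and the macrophage-rich glycoprotein Cd68 were at -0.10 ± 0.29 and 0.04 ± 0.52 with miR-24 against control.

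Both regulators had positive values with each mimic against control, and Grn was called with miR-27a. Grn (GRCm38, chr11:102430315-102437048, plus strand) read 48.8 (3 times 1 read), 85.0, 126 and 51.7 CPM in control replicates 1 to 4 and 79.4, 67.0, 108 and 111 CPM with miR-23a. It read 46.8, 101, 126 and 123 CPM with miR-24 and 118, 171, 187 and 171 CPM with miR-27a. Replicates 2 to 4 of miR-27a lay above every library of the other groups, and replicate 1 lay within their range. Grn rose with miR-27a against control by 1.08 ± 0.26 on the log2 scale (edgeR adjusted p = 0.0285, and 0.202 without the block). Leaving out control replicate 3 or 4 or miR-27a replicate 1, 2 or 3 ended the call (adjusted p up to 0.143), and without control replicate 1 the adjusted p was 0.0492. For miR-24 against control Grn was at 0.31 ± 0.25 (adjusted p = 0.521).

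Tfeb read 0, 11.6, 4.23 and 2.13 CPM in control replicates 1 to 4 and 21.3, 5.46, 9.59 and 4.43 CPM with miR-23a. It read 10.5, 10.4, 10.02 and 8.54 CPM with miR-24 and 16.4, 12.2, 3.80 and 5.64 CPM with miR-27a. The miR-24 libraries were the closest together (9.88 ± 0.922 CPM, SD, n = 4, beside 4.48 ± 5.03 in control), and the groups overlapped. The log2 fold change of Tfeb with miR-24 against control was 0.75 ± 0.45 (edgeR adjusted p = 0.369). The 5 genes with TCACGTGA in the promoter window had a median of -0.10 with miR-24 against control, and so did the 25 without it. The 10 genes with a miR-24 site had a median of -0.15 with 7 lower, and the 23 without one a median of 0.04 with 10 lower. With miR-23a against control the 7 genes with its site had a median of -0.29 and the 26 without one 0.01. With miR-27a the order was the other way, at 0.00 for the 12 genes with its site and -0.20 for the 21 without one. These splits were not tested. Cd63, Ctss, Gaa and Grn had no miR-24 site.

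A further 141 genes of lysosomal function were read in 6 lists, and 138 of them were tested. With miR-24 against control 68 were lower and 70 higher, with a median of 0.02, and 5 fell and 3 rose, where 2.25% of all genes fell and 2.32% rose. Taken in both directions together, the 8 of 138 called are near the 4.56% called over all genes. Against the mean of the other groups 79 were lower and 59 higher, with a median of -0.07, and 8 fell and 1 rose, where 3.06% of all genes fell and 3.12% rose. By list against control, 1 of 32 further hydrolases and activators and 4 of 25 further membrane proteins fell, so most falls were in the membrane list. That list summed to 1183 ± 230 CPM with miR-24 and 1662 ± 434 in control (SD, n = 4). Its sum was 2043 ± 502 CPM with miR-23a and 1966 ± 429 with miR-27a. The miR-24 sums, at most 1388 CPM, lay below those of miR-23a (from 1576) and miR-27a (from 1589) and overlapped control (from 1202). These sums were not tested. Of the proton pump 1 of 16 subunits rose, of enzyme sorting 1 of 20 genes and of autophagy 1 of 25, and of TFEB-family factors and nutrient sensing 0 of 20 were called (edgeR; 4 at an unadjusted p under 0.05, beside 20.3% of all genes). With miR-23a against control 0 of 138 were called by edgeR and 22 had an unadjusted p under 0.05, beside 17% of all genes; with miR-27a 1 rose, where 1.75% of all genes rose.

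Psap (GRCm38, chr10:60277627-60302597, plus strand) encodes prosaposin, the precursor of the saposins that present sphingolipids to hydrolases such as Asah1, Arsa and Glb1. It read 83.2, 81.2, 94.8 and 82.7 CPM with miR-24 and 212, 265, 306 and 203 CPM in control replicates 1 to 4. With miR-23a it read 339, 265, 213 and 204 CPM, and with miR-27a 231, 242, 287 and 269 CPM. All 4 miR-24 libraries lay below all 12 others. Against the miR-23a libraries alone 4.78% of all genes were so placed, and the share against all 12 is not given here. Psap was named for its small p among the further genes. Psap fell with miR-24 by 1.56 ± 0.19 on the log2 scale against control (edgeR adjusted p = 0.000297) and by 1.58 ± 0.17 against the mean of the others (adjusted p = 3.32e-05). Both calls stood with each library left out in turn (adjusted p up to 0.00437) and without the block (0.00212 and 0.000299).

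Ostm1, a partner of the chloride transporter Clcn7, was also below all other libraries with miR-24, at 15.4 to 24.2 CPM beside a lowest other library of 24.5 CPM (miR-27a replicate 1). The share of all genes so placed is again not given here. Gm2a, the activator of GM2 ganglioside breakdown by hexosaminidase, averaged 66.1 ± 28.7 CPM with miR-24 and 161 ± 81.1 in control (SD, n = 4), and it fell against the mean of the others by 1.21 ± 0.28 (edgeR adjusted p = 0.0157, and 0.0642 without the block). The Gm2a call was lost without miR-24 replicate 2 or 3 (adjusted p up to 0.114). Of the membrane proteins Laptm4b fell against control by 2.55 ± 0.47 (adjusted p = 0.00527, and 0.0862 without the block), on 0.167, 0.905, 2.12 and 2.78 CPM with miR-24 and 0, 4.41, 19.6 and 9.90 CPM in control. It read 2.15, 3.42, 11.6 and 11.1 CPM with miR-23a and 0.645, 5.17, 2.43 and 3.87 CPM with miR-27a, and both overlapped the miR-24 libraries. Its call was lost without control replicate 3 (adjusted p = 0.0725). Ostm1 fell by 1.18 ± 0.24 (adjusted p = 0.00877, and 0.0335 without the block), and the nucleoside transporter Slc29a3 by 1.29 ± 0.26 (0.00861 and 0.0582). Leaving out miR-24 replicate 3 or control replicate 4 ended the calls of Ostm1 and Slc29a3 (adjusted p up to 0.0701 and 0.0608). Cd164, named after its values were seen, was the other called membrane gene and fell by 0.89 ± 0.20 (adjusted p = 0.0205, and 0.0405 without the block).

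Gabarapl1, an ATG8-family autophagy protein, rose with miR-24 against control by 1.33 ± 0.30 (edgeR adjusted p = 0.0177, and 0.251 without the block). Leaving out miR-24 replicate 2 or control replicate 3 or 4 ended the Gabarapl1 call (adjusted p up to 0.0939). The pump subunit Atp6v1g1 rose by 0.92 ± 0.23 (adjusted p = 0.0312, and 0.148 without the block) and the mannose-6-phosphate receptor Igf2r by 0.74 ± 0.21 (0.0489 and 0.226). That of Atp6v1g1 ended without miR-24 replicate 2, 3 or 4 or either of control replicates 3 and 4 (up to 0.135). The call of Igf2r ended without 10 of the 16 libraries, among them control replicate 1 (adjusted p = 0.107; up to 0.263), and held without control replicate 2, miR-23a replicates 1 and 2, miR-24 replicates 1 and 4 or miR-27a replicate 4. Against the mean of the others the autophagy gene Wipi1 fell by 1.97 ± 0.46, Lamtor3 of the Ragulator scaffold by 0.73 ± 0.18 and folliculin (Flcn) by 0.80 ± 0.21 (adjusted p = 0.0129, 0.0223 and 0.0317, and 0.0605, 0.0828 and 0.175 without the block). For Wipi1 and Lamtor3 all miR-24 libraries lay below all libraries of the other groups but control replicate 1, which held 0 and 1 read. The calls were lost without miR-24 replicate 2 for Wipi1 (0.0818), without miR-24 replicate 2 or 3 for Lamtor3 (up to 0.147), and without control replicate 4, miR-24 replicate 2, 3 or 4 or miR-27a replicate 3 for Flcn (up to 0.215).

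**Figure D5:**
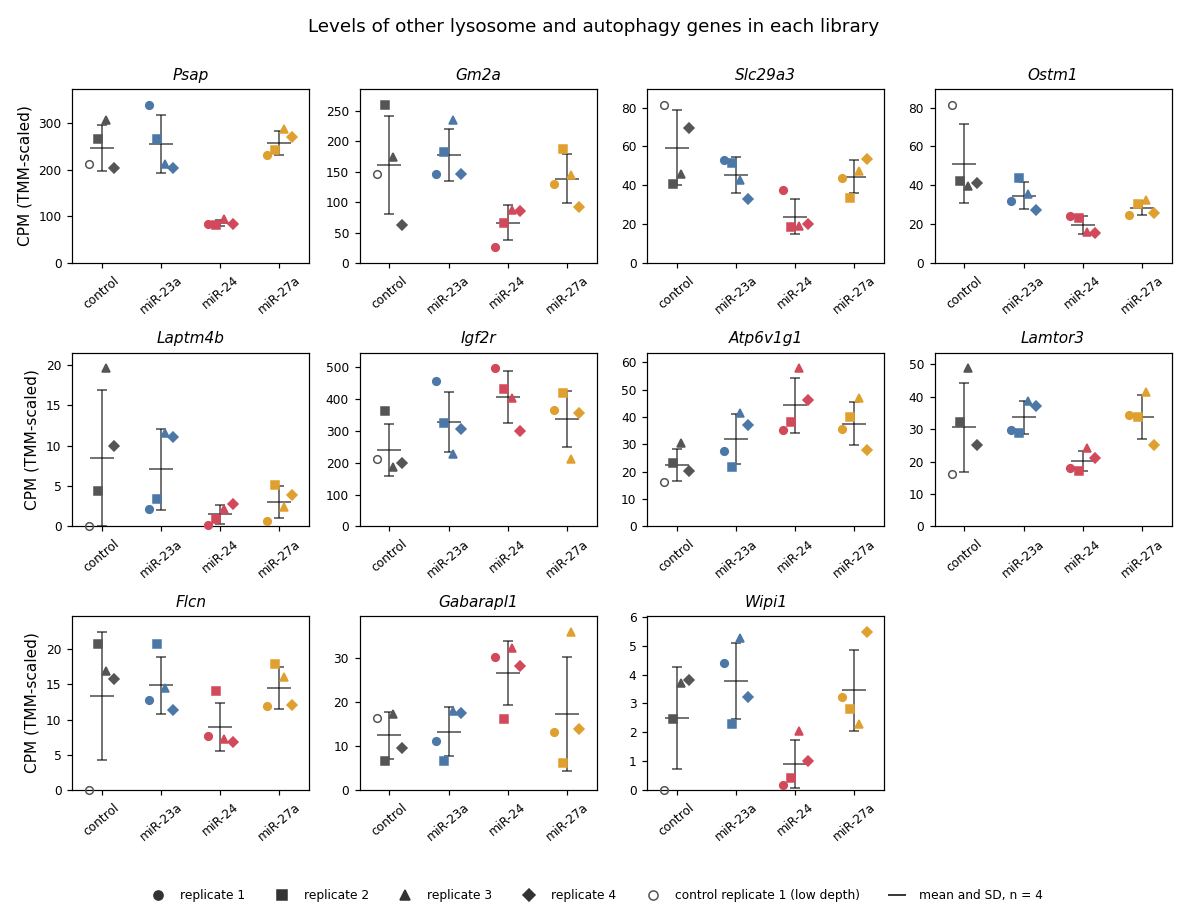
CPM of 11 further lysosome and autophagy genes in each library, by mimic group, with symbols as for the 10 lysosomal genes and the mean and SD of 4 libraries in black. The 4 miR-24 libraries of Psap lie between 81.2 and 94.8 CPM, below all other libraries, as do those of Ostm1 at 15.4 to 24.2 CPM; Wipi1 and Lamtor3 overlap through control replicate 1 alone.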

How the data were processed

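The authors deposited raw read counts per gene, 1 file per library, with 5 summary lines that hold 64.6% to 77.6% of the total and entered neither library sizes nor tests. Libraries were made from 1 ng of RNA of 150000 to 800000 sorted cells with NuGEN Ovation V2 and Ultralow kits and read as single 50-nt reads, per the labels' protocols. Bowtie2, TopHat, DESeq and the mm10 build are named in the submitters' processing notes; versions, counter, annotation and strand setting are not given in the sources used here, so overlapping and antisense genes cannot be separated.

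Tests used edgeR 4.0.16 in R 4.3.3 (filterByExpr by group, TMM, robust quasi-likelihood test, two-sided, Benjamini-Hochberg at 0.05), with group and replicate number as terms in all 16 libraries. Alternatives, whose effect the closing section gives, were the fit without the block, RLE and total-count scaling, no filter, Rn45s left out, DESeq2 1.42.0, limma 3.58.1 (voom with sample weights), only the libraries compared, and each library left out. Groups and numbers were taken from the titles. Lists are described by counts and medians, with no test.

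The number as a block is part of the rule that names the genes. Same-numbered libraries, after removal of group means, had correlations of -0.12 to 0.73, taken across the genes whose mean log2-CPM exceeded 5. All 4 correlations passed 0.1 for control with miR-27a, miR-23a with miR-24 and miR-23a with miR-27a, and 3 of 4 for the other pairs of groups. In those the mean was 0.172 (control with miR-23a), 0.253 (control with miR-24) and 0.387 (miR-24 with miR-27a). The same number was the best match for 3, 3 and 2 of 4 libraries. It was so for 4 of 4 in control with miR-27a, and for 3 of 4 in miR-23a with miR-24 and in miR-23a with miR-27a. The data back the pairing in part, and the block is kept because the rule names it.

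Genes given in full are those called in any of 7 comparisons plus Lamp1, Ctsd, Cd63, Npc2, Mcoln1 and Tfeb; of other lists, up to 3 called with miR-24 against control or against the mean of the others. The genes, lists and comparisons were chosen with earlier results of these data known.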

Additional observations from a re-analysis of the deposited data

Results flagged for a closer look

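Within-group outliers were looked for in 64 groups of 4 libraries (Dixon's criterion at 95%), and 3 were found, close to the 1 in 20 that chance gives. Ctss in miR-27a replicate 3 stood at 28.8 CPM, above 13.4 to 15.8 CPM in the other 3 miR-27a libraries. Glb1 in control replicate 1 stood at 0 CPM, below 62.6 to 75.3 CPM in the other control libraries; this is the library with 51474 gene reads, where a count of 0 allows up to 48.8 CPM. The summed level of the 13 sugar and sulfate hydrolases in miR-23a replicate 3 was 437 CPM, above 398 to 404 CPM in the other miR-23a libraries.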

How the results depend on the processing

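The median log2 fold change of the 33 genes moved by less than its spread over replicates under every alternative run. That spread was the SD of the 4 within-replicate medians. For miR-24 it was 0.499 against control, 0.139 against miR-23a and 0.108 against miR-27a. Against control replicate 1 rests on the shallow library, and the limit is so wide that staying within it says little. With each library left out the median ranged from -0.14 to 0.08 for miR-24 against control and -0.11 to 0.07 against the mean of the others. For miR-24 it ranged from -0.18 to -0.03 against miR-23a and 0.01 to 0.06 against miR-27a. For miR-23a and miR-27a against control it ranged from -0.06 to 0.09 and from -0.24 to 0.13. The number of the 33 called did change. Without the replicate block, that is without the pairing, it was 0 for miR-24 against control, against miR-27a and against the mean of the others, 0 for miR-27a against control, 1 for miR-24 against miR-23a and 1 for any difference. Total-count scaling gave 1 for miR-27a against control (3.24% of all genes) and 3 for any difference (9.22%). DESeq2 gave 2 for miR-24 against control (Cd63 and Mcoln1; 7.94% of all genes), 4 against miR-23a (8.18%), 2 against miR-27a (7.71%), 3 against the mean (8.79%), 3 for miR-27a against control (7.34%) and 9 for any difference (17.9%). Limma gave 0 for miR-24 against control (3.17%), 1 for miR-27a against control (3.1%), 2 for miR-24 against miR-27a (7.65%) and 1 for any difference (4.95%), and the fit of only the libraries compared gave 0 for miR-24 against miR-27a (1.24%). With each library left out the counts ranged from 0 to 3 for miR-24 against control, 0 to 1 for miR-23a against control, 0 to 3 for miR-27a against control, 0 to 4 for miR-24 against miR-23a, 0 to 3 against miR-27a, 0 to 4 against the mean and 0 to 6 for any difference. For the counts with a library left out, the shares of all genes called are not given here. Nor is the share for miR-24 against miR-23a without the block, so these counts cannot be set beside a background. The cause of the changes was not tested.

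Of 1945 values of single genes under the alternatives, 1743 kept direction and side of the threshold, 117 lost a call, 36 gained one and 49 changed sign, none of the last called before or after. Without the block Ctsd was at 0.024 for miR-27a against control and -0.0093 for miR-24 against miR-27a, and Tfeb at -0.056 for miR-24 against miR-23a. For miR-27a against control Ctsd was also at 0.016 with RLE scaling, 0.041 with total count, 0.018 with DESeq2 and 0.073 with only the libraries compared. For the same comparison Npc2 was at 0.019 with RLE scaling, 0.018 with total count, 0.00075 with no filter, 0.023 with DESeq2, 0.15 with limma and 0.0047 with only the libraries compared. Gaa was at 0.0032 with total count for miR-23a against control. With libraries left out the signs changed within -0.22 to 0.15 (Ctsd), -0.26 to 0.31 (Npc2) and -0.0010 to 0.53 (Mcoln1) for miR-27a against control, -0.10 to 0.22 (Ctsd) for miR-24 against control, and -0.14 to 0.26 (Ctsd) for miR-24 against miR-27a. For miR-23a against control they changed within -0.31 to 0.043 (Gaa), -0.029 to 0.50 (Grn) and -0.034 to 0.54 (Npc2). For miR-24 against miR-23a they changed within -0.45 to 0.024 (Cd63), -0.12 to 0.24 (Grn) and -0.13 to 0.47 (Tfeb), and against the mean within -0.23 to 0.067 (Gaa) and -0.28 to 0.041 (Grn). The depth of control replicate 1 limits every comparison with control for genes under about 48.8 CPM.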
